A study of Homo sapiens with 14 samples.

Results

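The transcriptome of SK-N-BE2 cells given 50 µM cobalt chloride (CoCl2) was compared with that of cells given water (H2O). The members are all 19923 protein-coding genes of the count tables, read in 4 of the 14 libraries of the series, 2 per group, which were taken by their sample titles. SK-N-BE2 is an established human neuroblastoma line in which the MYCN gene is amplified. Cells of both groups are labelled wild type and came from the same labelled batch, and the length of the CoCl2 exposure is not given in the labels. Another 2 libraries of that batch, from cells given 10 µM CoCl2, share the H2O controls and are quoted only side by side. Polyadenylated RNA was counted, with 31214128 to 39540111 counts per library over the 3 groups. The labels do not say whether replicates were separate cultures, so p-values measure the spread between these libraries, which may be technical. Replicates lay close together, with a chi-square per gene of 1.322 for H2O and 1.465 for 50 µM, where 1 is counting noise alone.

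Markers of adrenergic neuroblastoma cells were checked first. HAND2 was at 647 and 637 CPM (read counts scaled to the size of each library) in H2O, GATA3 at 235 and 233 CPM, and PHOX2A at 345 and 338 CPM. Of 7 markers of the mesenchymal neuroblastoma state, VIM, TWIST1 and CD44 were well expressed. Their list summed to 1300 and 1310 CPM in H2O and 1650 and 1670 CPM at 50 µM, with 2 members called higher and 2 lower. VIM alone made up 1130 and 1140 CPM and then 1510 and 1530 CPM of that sum. The part of this list in the results was not tested. TWIST1 went from 94.5 and 92.8 CPM to 68.7 and 70.1 CPM, and CD44 from 56.6 and 59.6 CPM to 53.5 and 55.8 CPM, a call lost in DESeq2, without H2O replicate 2 and without 50 µM replicate 1, while PRRX1 had 0 or 1 count. Among markers of other cells, PTPRC and CD3D had 0 or 1 count in each of the 4 libraries, and the summed endothelial markers reached 1.01 to 2.12 CPM. The summed immune list was at 5.9 and 5.72 CPM in H2O and 19.7 and 19.1 CPM at 50 µM, and CD68, a lysosomal glycoprotein, made up 5.31 and 5.09 CPM and then 19 and 18.8 CPM of it. In bulk RNA, a change in the number of cells of a type and a change in RNA per cell cannot be told apart.

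Cobalt ions occupy the iron site of the prolyl hydroxylases that mark hypoxia-inducible factors (HIF) for destruction, and they also act as a toxic metal on many other proteins. Cells answer such stress through transcription factors that each read their own promoter elements, among them ATF4 for amino acid and translation stress, NRF2 for oxidants, and SREBP for sterol shortage. Gene classes beyond the HIF and metal lists are the main subject here.

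Of 13636 genes with enough counts to be tested, 61.4% were called at an adjusted p under 0.05 in edgeR's quasi-likelihood test, 30.4% higher and 31.1% lower at 50 µM. Most changes were small, and the median absolute log2 fold change of a called gene was 0.242. A change of at least 1.5-fold was called for 10.7% of tested genes, 714 higher (5.24%) and 739 lower (5.42%). At least 2-fold changes numbered 294 higher and 341 lower, and at least 4-fold changes 47 in each direction. The reference lists of HIF targets and of metal and oxidative stress genes are small, with 62 tested genes (0.455% of all tested). They held 52 of the 8378 called genes (0.621%), 18 of the 714 called higher by at least 1.5-fold, and 0 of the 739 called lower by that much. The other called genes lay outside those 2 lists, and the median over all tested genes was 0.002 on the log2 scale.

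With so many calls, a list was read against the background shares of 30.4% higher and 31.1% lower. The lists that follow were picked for description after their shares were seen, so their distance from the background carries no test. In the plot of calls per list, sterol synthesis, mitosis and the splicing factors extended to the lower side, and ribosomal proteins, ATF4 targets and DNA replication genes to the higher side.

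**Figure D1:**
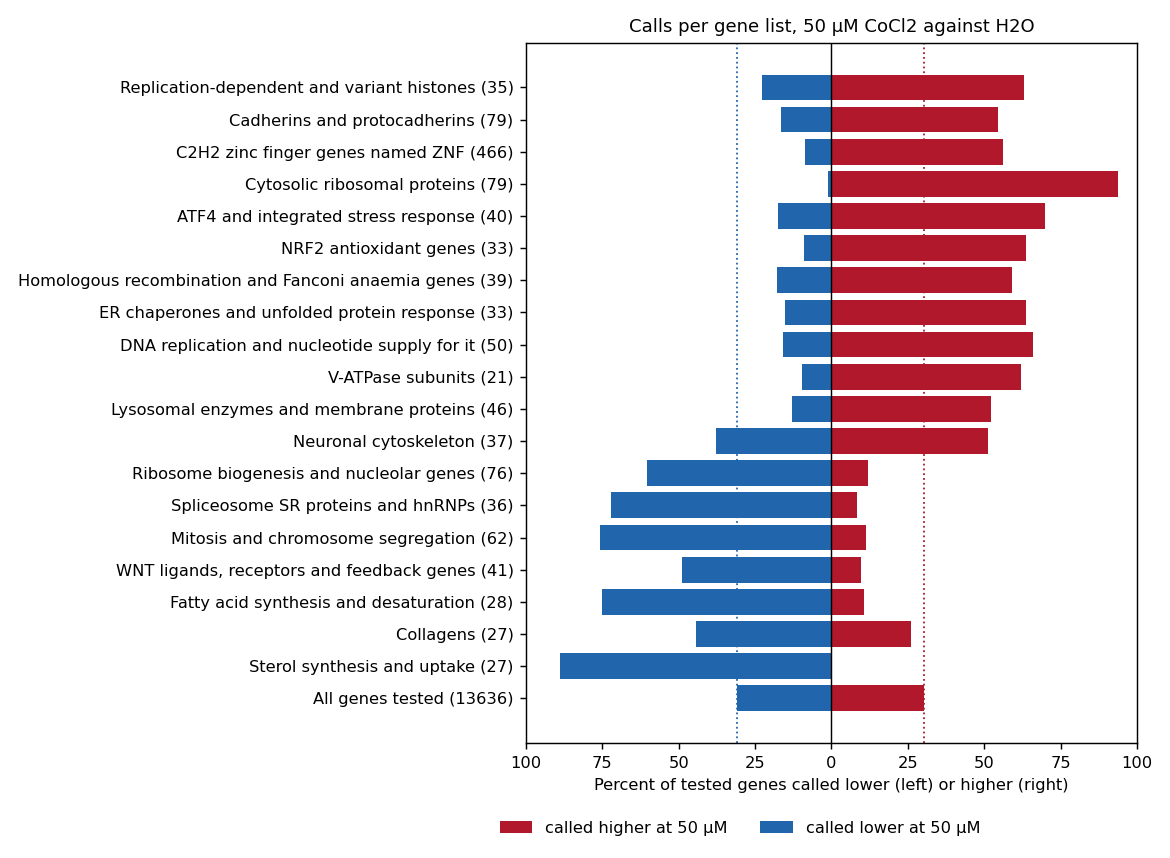
Percent of tested genes called lower (blue, left) or higher (red, right) at 50 µM CoCl2 against H2O for 19 gene lists, with the number tested in parentheses. Dotted lines mark the shares over all genes, 31.1% lower and 30.4% higher, and the bar of the sterol list has no higher part.

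Cholesterol is built from acetyl-CoA through mevalonate and squalene, and cells set the pace of this pathway, and of cholesterol uptake, through the factors SREBF2 and SREBF1. Of 28 genes of sterol synthesis and uptake in the tables, 27 were tested. Among these, 24 fell (88.9%) and 0 were called higher, with a median log2 fold change of -0.445, and 11 fell by at least 1.5-fold. HMGCS1, which makes the precursor HMG-CoA (chromosome 5, 43287470 to 43313512, minus strand, GRCh38), stood at 468 and 465 CPM in H2O and at 228 and 225 CPM at 50 µM. Its log2 fold change was -1.04 ± 0.02 (SE, n = 2 per group), with an edgeR adjusted p of 5.7e-106. DHCR7, the last step to cholesterol, fell from 150 and 143 CPM to 83.1 and 86.4 CPM, a log2 fold change of -0.79 ± 0.03. ACAT2, at the entry to the pathway, fell by 0.81 on the log2 scale. Groups that did not overlap were a condition for naming these genes and those that follow by rule, and 78.5% of all tested genes met it. Exons of ACAT2 overlap neighbours on the opposite strand, and reads of such stretches were not separated by strand.

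The sensor INSIG1 fell by 0.66 on the log2 scale and SREBF2 itself fell by 0.22, both singled out after their values were seen. The members not called were TM7SF2, INSIG2 and the carrier SCAP, whose log2 fold changes were -0.10, -0.05 and -0.04. At 10 µM the same list had 15 genes higher and 1 lower, where 11.6% and 11.1% of all tested genes were called higher and lower. The log2 fold change of HMGCS1 at that dose was 0.29 and that of INSIG1 0.25. The plot of the sterol genes named here shows both doses: the 50 µM libraries lay below both H2O libraries for each gene but TM7SF2 and INSIG2, and the 10 µM libraries lay above them for HMGCS1, INSIG1, DHCR7, ACAT2 and SREBF2.

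**Figure D2:**
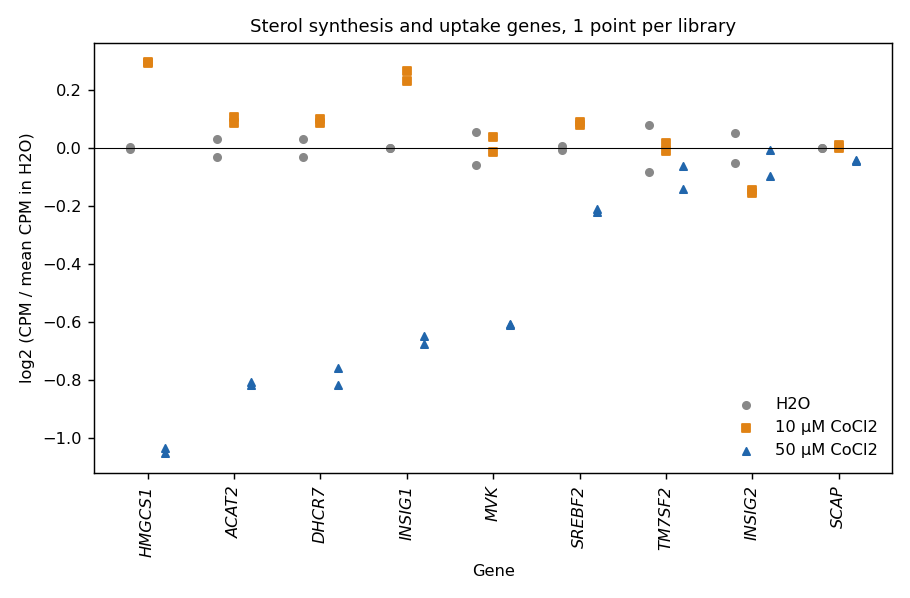
Level of 9 sterol synthesis and uptake genes, those named in the text, in each library, as log2 of CPM over the mean CPM of the 2 H2O libraries, with 1 point per library and genes ordered by their change at 50 µM. HMGCS1 is lowest at 50 µM, with a log2 fold change of -1.04, and its 10 µM points lie above 0.

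Fatty acid synthesis and desaturation genes moved with them: 21 of 28 fell (75%) and 3 rose, with a median of -0.237. The desaturase SCD was among the 10 genes with the largest difference in CPM of all genes, at 1615 and 1613 CPM in H2O and 1164 and 1146 CPM at 50 µM (-0.48 ± 0.01). ACSL3, which activates long-chain fatty acids, fell from 141 and 148 CPM to 95.8 and 90 CPM (-0.64 ± 0.03). The elongase ELOVL6 fell by 0.59. The desaturase FADS2, whose exons overlap FADS1 and FEN1, fell by 0.57. SREBF1 fell by 0.60, and its exons overlap RAI1 on the opposite strand. SCD5, a second desaturase, and ME1, which supplies NADPH, went the other way, with rises of 0.33 and 0.17.

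Promoter stretches are shown for sterol genes because SREBP factors act there together with NF-Y, the factor that reads CCAAT. Sequences are from RefSeq (GRCh38.p14), run 5′ to 3′ on the gene's strand, and end before the start site. Capitals mark CCAAT on either strand in HMGCS1 (chr5:43313496-43313579, minus strand) and MVK (chr12:109573572-109573764, plus). HMGCS1 held 2 CCAAT matches. MVK, a mevalonate kinase that fell by 0.61, held 5. Promoters were at hand for 21 of the 27 genes, under 80%, so no share of the list is given.
HMGCS1: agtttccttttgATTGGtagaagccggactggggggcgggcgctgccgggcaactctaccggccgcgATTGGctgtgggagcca
MVK: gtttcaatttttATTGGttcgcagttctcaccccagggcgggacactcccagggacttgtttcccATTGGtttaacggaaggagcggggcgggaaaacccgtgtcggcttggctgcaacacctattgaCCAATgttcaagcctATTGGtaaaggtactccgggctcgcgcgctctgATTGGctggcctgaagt

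Genes of cell division separated by phase. Genes for copying DNA were called higher more often than the background, and genes for separating chromosomes were called lower more often. Of 50 tested genes of DNA replication and its nucleotide supply, 33 rose (66%) and 8 fell, with a median of 0.131. CDT1, which loads the MCM helicase (chromosome 16, 88803789 to 88809258, plus strand), rose from 52.3 and 55.7 CPM to 88.2 and 85.8 CPM, a log2 fold change of 0.69 ± 0.03 (adjusted p 1.25e-45). ORC1, of the origin complex, rose by 0.64 ± 0.04 and CDC6, its partner in loading, by 0.52 ± 0.03. RRM2, a subunit of the reductase that makes deoxynucleotides, rose from 404 and 405 CPM to 575 and 586 CPM (0.52 ± 0.02). Against this trend, MCM6 fell by 0.19, and DBF4, which activates the CDC7 kinase, by 0.34.

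Recombination and Fanconi anaemia genes, which repair broken and cross-linked DNA, had 23 of 39 higher (59%) and 7 lower, with a median of 0.160. The nuclease EXO1 rose from 118 and 116 CPM to 168 and 166 CPM (0.51 ± 0.02). Among those lower, FANCF fell by 0.38 and NBN by 0.37.

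Of 62 mitosis and chromosome segregation genes, 47 fell (75.8%) and 7 rose, with a median of -0.213. The kinesin CENPE fell from 169 and 175 CPM to 108 and 106 CPM (-0.69 ± 0.02, adjusted p 1.23e-60). CENPA, the histone of the centromere, fell from 43.4 and 44.6 CPM to 28.4 and 27.2 CPM (-0.66 ± 0.04). HMMR, a spindle protein, fell by 0.66 and DLGAP5, another, by 0.62. The 7 genes called higher included MYBL2 at 0.22, CDK1 at 0.13 and AURKB at 0.12, and the call for AURKB was lost in DESeq2 and without H2O replicate 1. At 10 µM 38 of the 62 were lower and 0 higher, with a median of -0.090.

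The G1 regulators had no common direction, with 10 of 27 higher and 8 lower. The inhibitor CDKN1A (p21) rose from 16.7 and 16.6 CPM to 37.4 and 38.5 CPM, a log2 fold change of 1.19 ± 0.05. CDKN1C (p57), a related inhibitor, fell from 12.6 and 11.7 CPM to 2.53 and 2.41 CPM (-2.30 ± 0.11). Cyclin gene CCND1 fell by 0.27, while E2F1 rose by 0.36 and CCNE2 by 0.53.

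Histone genes split by class, a split made after values were seen. Histones made for replication are encoded in clusters and their mRNA mostly ends without a poly(A) tail, so oligo-dT libraries hold only its polyadenylated part. Of 82 histone genes in the tables, 35 could be tested. Among these, 19 of 22 replication-dependent histones rose, all by at least 1.5-fold, 1 fell, and the median was 1.049. The mean level of the 22 had a median of 2.46 CPM and a lowest value of 0.222 CPM. A single group could meet the count filter, so rare histones may have passed only through the group where they are high. Their summed level was 57.84 and 60.16 CPM in H2O and 121.1 and 121.7 CPM at 50 µM. H1-2 rose from 6.06 and 6.48 CPM to 13.2 and 15.5 CPM (adjusted p 9.36e-30), and H2BC12 from 4.73 and 4.77 CPM to 11.2 and 10.8 CPM (1.21 ± 0.09). Of the 13 other histones, which are made outside S phase, 7 fell and 3 rose. H1-10 fell from 134 and 134 CPM to 84.1 and 86 CPM (-0.65 ± 0.03). Near-identical histone copies can share reads, so the values of single members are uncertain.

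**Figure D3:**
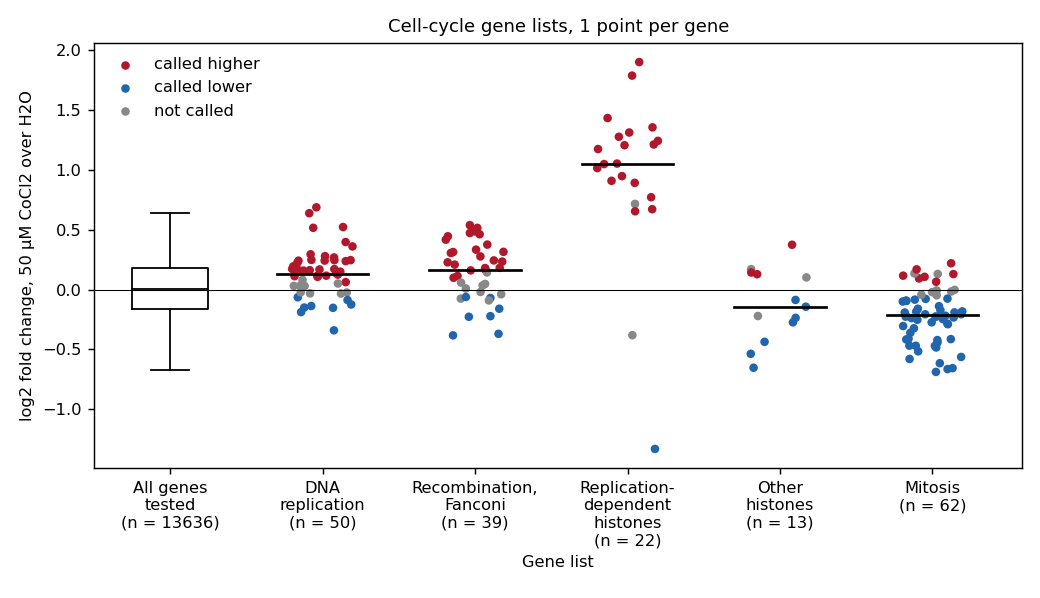
Log2 fold change at 50 µM CoCl2 over H2O for each gene of 5 cell-cycle groups, with red for called higher, blue for called lower, grey for not called and a line at the median. The box for all genes spans the quartiles, with whiskers from the 5th to the 95th percentile. Replication-dependent histones have their median at 1.049 and mitosis genes at -0.213.

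Promoters of these groups were searched for elements of E2F, which acts at the start of S phase, and of NF-Y, which acts at both histone and mitotic genes. The letters TTTCCCGC, one form of the E2F site, were in 25.6% of 43 matched replication promoters, 2.54% of the 11059 of tested genes and 1.66% of all 27305 promoters of the table. They were in 0 of 33 histone promoters and 1.89% of 53 mitosis promoters. The letters CCAAT were in 84.8% of 33 histone promoters, 58.1% of 43 replication promoters and 73.6% of 53 mitosis promoters. Among promoters of tested genes the share was 36.4%, and among all promoters 35.7%. The histone share covers replication-dependent and other histones together. CCAAT was thus common in the replication list, with more genes higher, and in the mitosis list, with more lower. Both motifs were searched on either strand, from 250 bases before to 50 after the start, and a match is not a proven site. Capitals mark the E2F form in CDT1 (chr16:88803734-88803781, plus) and PCNA (chr20:5126654-5126701, minus). They mark CCAAT in H2BC12 (chr6:27146923-27147079, minus), H2BC21 (chr1:149886745-149886862, minus), PLK1 (chr16:23678796-23678840, plus) and CCNB1 (chr5:69167048-69167114, plus).
CDT1: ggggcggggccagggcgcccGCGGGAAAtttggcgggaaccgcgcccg
PCNA: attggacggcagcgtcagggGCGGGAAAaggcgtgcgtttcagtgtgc
H2BC12: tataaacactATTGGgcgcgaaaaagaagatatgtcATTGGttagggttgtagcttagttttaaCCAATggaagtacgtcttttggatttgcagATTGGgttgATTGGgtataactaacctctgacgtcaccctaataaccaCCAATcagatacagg
H2BC21: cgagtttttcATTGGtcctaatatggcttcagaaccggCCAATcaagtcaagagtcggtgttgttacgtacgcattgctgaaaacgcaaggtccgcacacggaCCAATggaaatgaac
PLK1: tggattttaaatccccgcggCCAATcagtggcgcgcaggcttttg
CCNB1: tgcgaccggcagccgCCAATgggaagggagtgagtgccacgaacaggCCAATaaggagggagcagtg
In these promoters' genes, chosen after values were seen, the sliding clamp PCNA rose by 0.11 on the log2 scale, and H2BC21 rose by 1.05. The kinase PLK1 fell by 0.56 and the cyclin CCNB1 by 0.47.

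Cytosolic ribosomal proteins rose together by small amounts. Of 79 genes, 74 rose (93.7%), 1 fell and 4 were not called, yet 0 reached 1.5-fold and the median was 0.209. Their summed level was 37740 and 37710 CPM in H2O, 40120 and 39760 CPM at 10 µM, and 43050 and 43880 CPM at 50 µM. RPL34, of the large subunit, rose from 231 and 231 CPM to 296 and 298 CPM (0.36 ± 0.02). Both subunits took part, with 44 of 47 large-subunit and 30 of 32 small-subunit genes higher. The 1 that fell, RPS23, changed by -0.06, and DESeq2 did not call it. The elongation factor EEF2, the gene with the largest CPM difference of all, rose from 7175 and 7102 CPM to 8617 and 8758 CPM (0.28 ± 0.01). Its own list, the translation initiation and elongation factors, did not rise as a whole. Of 59 tested, 22 rose (37.3%) and 21 fell (35.6%), with a median of -0.010. Ribosomal protein genes have many processed pseudogenes, so reads shared with those copies make single values uncertain.

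The factors that assemble ribosomes did not rise with the proteins. Of 76 ribosome biogenesis and nucleolar genes, 46 fell (60.5%) and 9 rose, with a median of -0.092, and 0 reached 1.5-fold. DDX10, an RNA helicase, fell from 128 and 130 CPM to 96.4 and 96.8 CPM (-0.41 ± 0.03). UTP20, of the small-subunit processome, fell from 118 and 115 CPM to 93.7 and 90.8 CPM (-0.34 ± 0.03). At 10 µM 14 of the 76 were higher and 1 lower. The letters CACGTG, an E-box read by MYC and related factors, were in 36.5% of 63 matched promoters of this list, 10% of those of tested genes and 7.43% of all promoters. UTP20 is shown as an example (chr12:101280075-101280104, plus), with the E-box in capitals.
UTP20: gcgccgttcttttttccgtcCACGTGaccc

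Splicing factors fell with modest sizes. Of 36 SR proteins and hnRNPs, 26 fell (72.2%) and 3 rose, with a median of -0.148. SRSF1, an SR protein that promotes exon inclusion, fell from 302 and 311 CPM to 182 and 188 CPM (-0.73 ± 0.02, adjusted p 1.11e-75). SRSF3 fell from 482 and 490 CPM to 365 and 369 CPM (-0.41 ± 0.02), and TRA2A by 0.48. SRSF5 was among the exceptions, with a rise of 0.15. Another gene model overlaps SRSF1 on the same strand, and fragments in shared exons were not assigned to either.

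Stress programmes rose in part. ATF4 is translated when the initiation factor eIF2 is phosphorylated, and it turns on amino acid synthesis and import genes. Of 40 tested ATF4 and integrated stress response genes, 28 rose (70%) and 7 fell, with a median of 0.185. DDIT3 (CHOP), a transcription factor of prolonged stress, rose from 12.6 and 13.3 CPM to 22.9 and 23.2 CPM (0.84 ± 0.06, adjusted p 1.61e-27). PPP1R15A (GADD34), which reverses eIF2 phosphorylation, rose from 13.7 and 12.9 CPM to 23.1 and 24.1 CPM (0.83 ± 0.06). ATF5 rose by 1.17 and the cystine importer SLC7A11 by 0.54. Exons of DDIT3 and ATF5 overlap genes on the opposite strand. The log2 fold change was 0.08 for TRIB3 and 0.12 for CHAC1, neither of them called. ALDH1L2, a mitochondrial folate enzyme, fell by 0.44. ATF4 mRNA rose by 0.35 and asparagine synthetase ASNS by 0.50, genes named after values were seen.

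Endoplasmic reticulum chaperones and unfolded protein response genes had 21 of 33 higher (63.6%) and 5 lower, with a median of 0.137. The chaperone HSPA5 (BiP) rose from 488 and 497 CPM to 651 and 659 CPM (0.41 ± 0.02), and HERPUD1, of the degradation machinery, from 54.4 and 51.9 CPM to 80 and 81.5 CPM (0.60 ± 0.03). The secreted factor MANF rose by 0.48. WFS1, a membrane protein of the same compartment, fell by 0.48. Only HERPUD1 in this list reached 1.5-fold.

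Promoters of both lists were searched for elements named for these pathways. TGATGNAA, the composite element read by ATF4, was in 15.6% of 32 matched promoters of the ATF4 list, 1.65% of those of tested genes and 3.67% of all promoters. CCAAT was in 83.9% of 31 promoters of the unfolded protein response list, 36.4% of those of tested genes and 35.7% of all. CCACG was in 71%, 49.4% and 37.9% of the same sets. TGACGTGG, the unfolded protein response element, was in 3.23%, 0.913% and 0.795% of them. These shares cover all matched members, called or not, of lists that were put together for these pathways. They describe the lists and not the response to CoCl2. ATF6 reads CCAAT and CCACG set apart by a short spacer, and capitals mark both words in HSPA5 (chr9:125241381-125241569, minus) and HERPUD1 (chr16:56931972-56932073, plus). In ASNS (chr7:97872449-97872496, minus) they mark the composite element, 68 bases before the start.
HSPA5: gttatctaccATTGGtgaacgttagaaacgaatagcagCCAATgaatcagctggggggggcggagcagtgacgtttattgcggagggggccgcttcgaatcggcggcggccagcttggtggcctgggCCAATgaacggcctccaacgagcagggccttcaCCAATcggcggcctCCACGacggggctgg
HERPUD1: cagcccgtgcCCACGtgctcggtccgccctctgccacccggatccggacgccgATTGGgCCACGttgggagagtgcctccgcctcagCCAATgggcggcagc
ASNS: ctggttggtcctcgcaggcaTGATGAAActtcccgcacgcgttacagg

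Antioxidant genes under NRF2 had 21 of 33 higher (63.6%) and 3 lower, with a median of 0.177. By at least 1.5-fold, 8 rose and 1 fell. Of the 33 tested, 7 are also in the metal and oxidative stress list, NQO1 and HMOX1 among them. Of the other 26, 16 rose and 3 fell, with a median of 0.175. AKR1C3, an aldo-keto reductase, rose from 5.21 and 5.14 CPM to 20.8 and 22.1 CPM (2.05 ± 0.08), and the quinone reductase NQO1 from 33.1 and 35.6 CPM to 70.7 and 70.9 CPM (1.04 ± 0.04). AKR1C genes are close copies of each other, so their reads may be shared. Haem oxygenase HMOX1 rose by 0.85, from levels of 4.39 and 3.98 CPM.

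Of 46 tested lysosomal genes, 24 rose (52.2%), 6 fell and 16 were not called, with a median of 0.106. SMPD1, an acid sphingomyelinase, rose from 10.6 and 10.9 CPM to 16.8 and 16.3 CPM (0.63 ± 0.07), and HEXA, a hexosaminidase, by 0.44. The proton pump that acidifies lysosomes, the V-ATPase, had 13 of 21 subunits higher (61.9%) and 2 lower. ATP6V1A, a core subunit, rose from 153 and 157 CPM to 193 and 191 CPM (0.31 ± 0.02). Iron handling genes changed at both ends of the pathway. TFRC, the transferrin receptor that imports iron (chromosome 3, 196027183 to 196082096, minus strand), rose from 414 and 420 CPM to 884 and 885 CPM at 10 µM and 1680 and 1649 CPM at 50 µM, a log2 fold change of 2.00 ± 0.02 at the higher dose. The ferritin chains that store iron rose too, FTL by 0.81 and FTH1 by 0.66. Of the 19 tested genes of iron uptake, storage and sensing, 10 rose and 6 fell, STEAP3 by 0.58.

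Zinc finger genes were called higher more often than the background. Most of these genes encode repressors with arrays of C2H2 fingers, often joined to a KRAB domain, and many sit in clusters on chromosome 19. Of 505 genes named ZNF, 466 were tested, 262 rose (56.2%) and 40 fell, with a median of 0.218. Split by position after values were seen, the 228 on chromosome 19 had 173 higher (75.9%) and 5 lower, with a median of 0.400 and 63 rises of at least 1.5-fold. The 238 on other chromosomes had 89 higher (37.4%) and 35 lower, with a median of 0.085 and 3 such rises. The 787 other genes on chromosome 19 had 258 higher (32.8%) and 203 lower, with a median of 0.035, near the background. The summed level of the chromosome 19 group was 3174 and 3196 CPM in H2O, 3419 and 3428 CPM at 10 µM, and 3973 and 3915 CPM at 50 µM.

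ZNF850 (chromosome 19) rose from 6.18 and 5.85 CPM to 13.7 and 15.2 CPM (1.27 ± 0.08, adjusted p 7.35e-32), and ZNF667 from 4.83 and 5.09 CPM to 10.9 and 11.1 CPM (1.15 ± 0.09). ZNF548 rose by 1.30 and ZNF814 by 1.15, though both overlap other gene models. Elsewhere, ZNF518B fell from 38.8 and 38.1 CPM to 28.7 and 29.6 CPM (-0.40 ± 0.04), and ZNF117, which overlaps ERV3-1, by 0.75.

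ZNF genes are of low abundance, which was checked by quintile of mean CPM. In the lowest quintile the median log2 fold change was 0.430 for 71 ZNF genes and 0.031 for 2657 others, and in the next 0.273 for 232 and -0.005 for 2495. In the highest it was 0.035 for 18 ZNF genes and -0.008 for 2709 others. In each of the 5 quintiles the ZNF median lay above that of other genes, and the gap was smallest in the most abundant, a description without a test. Repeated finger sequences are alike between members, so single values may include shared reads. The letters CCGGAAGT, an ETS site, were in 18% of 400 matched ZNF promoters, 8.4% of those of tested genes and 4.44% of all. ZNF814 is shown (chr19:57889038-57889083, minus), with the match in capitals.
ZNF814: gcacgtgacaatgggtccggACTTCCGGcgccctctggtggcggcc

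**Figure D4:**
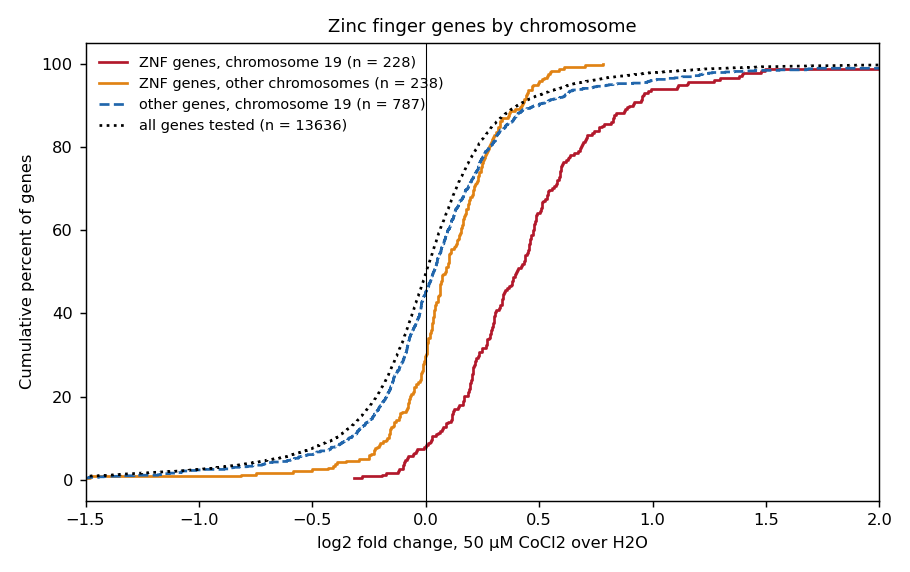
Cumulative percent of genes against log2 fold change at 50 µM CoCl2 over H2O for 228 ZNF genes on chromosome 19, 238 on other chromosomes, 787 other genes on chromosome 19 and all 13636 genes. The axis is limited to -1.5 to 2, and only the chromosome 19 ZNF line is set well to the right, with its median at 0.400.

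Clustered protocadherins gave a like picture among adhesion genes. They encode neuronal surface proteins from 3 tandem arrays on chromosome 5, and neurons choose among them for identity. Of 79 tested cadherins and protocadherins, 43 rose (54.4%) and 13 fell, with a median of 0.492. By subgroup, chosen after values were seen, 33 of 47 clustered members rose and 0 fell, and all 47 had a log2 fold change above 0. In the lowest quintile of mean CPM, 1378 of 2657 genes not named ZNF lay above 0, with 518 called higher and 514 lower. The gamma array had 16 of 19 higher (median 0.941), the beta array 9 of 14 and the alpha array 8 of 14. These are rare transcripts, with a median of 1.34 CPM and a sum of 226.5 and 230.3 CPM in H2O against 295 and 287.7 CPM at 50 µM. The lowest mean was 0.257 CPM. A single group could meet the count filter, so rare members may have passed only through the group where they are high. Members of the alpha and gamma arrays share constant exons, and fragments within exons shared between genes were not assigned. Outside the arrays, protocadherins had 2 of 9 higher and 5 lower, and genes named CDH 4 of 14 higher and 5 lower. PCDH9 rose from 55 and 58 CPM to 110 and 104 CPM (0.92 ± 0.03), whereas CDH4 fell from 24.6 and 24.9 CPM to 8.58 and 9.77 CPM (-1.42 ± 0.07) and CDH11 by 0.81.

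Signalling and matrix genes changed member by member. Of 41 tested WNT ligands, receptors and feedback genes, 20 fell (48.8%) and 4 rose, with a median of -0.215. DKK1, a secreted WNT antagonist, fell from 32.1 and 29.4 CPM to 12.6 and 12.9 CPM (-1.27 ± 0.06), and DKK3, of the same family, from 27.4 and 25 CPM to 9.31 and 8.68 CPM (-1.54 ± 0.07). The receptor FZD7 fell by 0.66. Among growth-responsive transcription factors, EGR1 fell from 208 and 207 CPM to 59.8 and 60.6 CPM (-1.78 ± 0.03, adjusted p 2.41e-116) and FOS from 139 and 139 CPM to 71.3 and 72.5 CPM (-0.95 ± 0.03), while FOSL2 rose by 0.68. In that list of 26 tested immediate early genes, 10 rose and 11 fell. Of 44 tested TGF-beta and BMP pathway genes, 20 rose and 11 fell. The ligand TGFB1 rose from 9.58 and 7.99 CPM to 27.9 and 29.6 CPM (1.71 ± 0.06). The BMP target ID2 rose from 39.9 and 39.9 CPM to 83.4 and 82.2 CPM (1.05 ± 0.04), and the BMP antagonist GREM1 by 0.91. Exons of TGFB1 overlap HNRNPUL1 on the opposite strand.

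Collagens had 12 of 27 lower (44.4%), 10 of them by at least 1.5-fold, and 7 higher. COL6A2 fell from 44.6 and 43.7 CPM to 24.5 and 25.1 CPM (-0.83 ± 0.05) and its partner COL6A1 by 0.52, while the basement membrane chains COL4A1 and COL4A2 rose by 0.38 and 0.27. Among 46 tested laminins, integrins and matrix glycoproteins, 18 rose and 17 fell. Integrin ITGB5 fell from 96.6 and 99.4 CPM to 45.2 and 44.6 CPM (-1.13 ± 0.03), and ITGA11 rose by 0.99. The log2 fold change was -1.17 for ITGA4 and -1.37 for ITGA9. The matrix protease MMP14 fell by 0.95 and ADAM12 by 1.56, and the inhibitor TIMP1 rose by 0.89. The adhesion molecule ALCAM rose from 644 and 655 CPM to 1095 and 1072 CPM (0.74 ± 0.01).

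Neuronal cytoskeleton genes moved in both directions. Of 37 tested, 19 rose (51.4%) and 14 fell (37.8%), 0 by 1.5-fold. The neuronal intermediate filament PRPH rose from 342 and 342 CPM to 507 and 515 CPM (0.58 ± 0.02), and VIM from 1134 and 1139 CPM to 1512 and 1530 CPM (0.42 ± 0.01). DPYSL3, which guides growth cones, fell from 912 and 914 CPM to 660 and 664 CPM (-0.46 ± 0.01), and tubulin TUBB3 by 0.20.

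The genes with the largest changes came from several of these classes and from none. Among rises of genes with a mean of at least 5 CPM and groups that did not overlap, CRH, a stress peptide hormone, went from 17 and 17.3 CPM to 73.6 and 72.7 CPM (2.09 ± 0.04), and the orphan receptor GPR50 from 10.1 and 9.23 CPM to 33.1 and 33.1 CPM (1.78 ± 0.06). CD68 rose from 5.31 and 5.09 CPM to 19 and 18.8 CPM (1.86 ± 0.08). Among falls, KIAA0040 went from 25.7 and 25 CPM to 3.2 and 3.78 CPM (-2.85 ± 0.08), and NT5E, which makes adenosine at the cell surface, from 17.3 and 17.5 CPM to 4.06 and 5.15 CPM (-1.91 ± 0.09). CPLX3, a complexin of synapses, fell from 89.7 and 94.6 CPM to 26.1 and 24.8 CPM (-1.86 ± 0.04), and the growth factor PDGFD by 1.83. Of the 739 genes lower by at least 1.5-fold, 28.3% belonged to any of the lists, and of the 714 higher by that much, 41.9%, beside 25.9% of all tested genes.

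**Figure D5:**
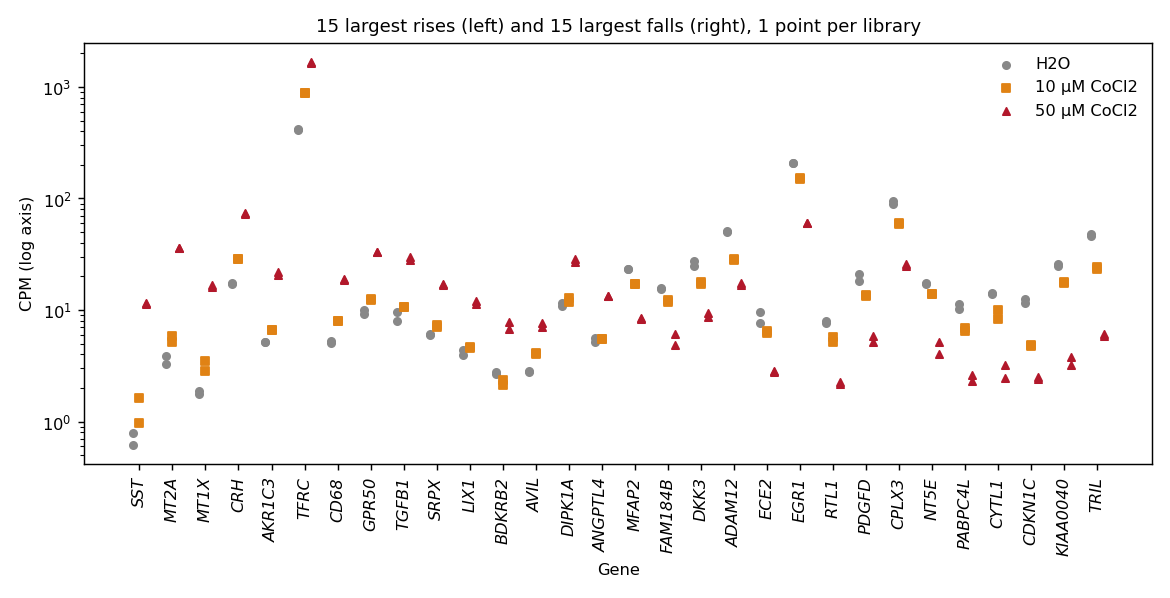
CPM on a log axis in each library for the 15 genes with the largest rises (left) and the 15 with the largest falls (right) at 50 µM CoCl2, with 1 point per library. The genes were picked among those whose H2O and 50 µM points do not overlap, and BDKRB2 at 10 µM lies below H2O although it rose at 50 µM.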

How the data were processed

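Cells, grouped by sample title, gave strand-specific oligo-dT libraries. The authors deposited raw fragment counts per gene, made with featureCounts on paired reads over exons of GENCODE protein-coding genes without a strand option, per the file headers. Trimmomatic 0.36, STAR 2.6.1d, Subread 1.5.3 and GRCh38 are named in the submitters' processing notes. Fragments over several genes were not assigned, and overlapping genes on opposite strands cannot be told apart.

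Counts of the 6 libraries of the batch were fitted together with edgeR 4.0.16 (R 4.3.3; TMM scaling, filterByExpr, robust quasi-likelihood fit, 1 coefficient per group), with a dispersion floor of 0.0001001 where 7.66e-05 was estimated. Benjamini-Hochberg adjustment ran over all 13636 genes tested, and 6287 with low counts were not tested. The script was tested on simulated data. The members and lists were chosen with earlier results of these data known. Named genes are up to 4 called members per list and direction with the largest change, a mean of at least 5 CPM and groups that do not overlap, the 15 largest rises and falls, and the 10 largest CPM differences. Others, among them INSIG1, MVK, SREBF2, PCNA, H2BC21, PLK1, CCNB1, ATF4, ASNS, the marker genes and genes named as not called, were chosen after values were seen. Some genes are not reported here by name. Promoters of RefSeq were matched by symbol or older symbol for 81.1% of tested genes. Alternatives were other scalings, filters, DESeq2 1.42.0, a replicate block and leaving out each library.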

Additional observations from a re-analysis of the deposited data

How the results depend on the processing

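Counts of called genes ranged from 6190 in DESeq2 to 8377 over 14 alternatives, against 8378, and those of at least 1.5-fold from 1107 with a minimum of 1 CPM to 1502 without a filter, against 1453. Leaving out 1 library gave 7331 to 7568 calls. With upper-quartile scaling 52.5% of calls were higher, against 49.4%. Calls shared with each alternative had the same direction, and all 266 counts for the 19 lists described stayed within 1.5 times. Of 1792 values for the 128 genes named, 0 reversed, 10 lost the call and 2 gained it. AURKB lost it in DESeq2 (adjusted p 0.0883) and without H2O replicate 1. RPS23 lost it in DESeq2 (adjusted p 0.124), without a filter, without the dispersion floor and in the legacy fit. CD44 lost it in DESeq2, with upper-quartile scaling, without H2O replicate 2 and without 50 µM replicate 1. INSIG2 (without H2O replicate 1) and TM7SF2 (without H2O replicate 2) gained it. With a replicate block 8303 genes were called. Deviations of same-numbered H2O and 50 µM libraries correlated at -0.05752, so the numbers did not pair the samples. With 2 libraries per group, outlying libraries could not be tested, and genes of low level have wider errors.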

Other observations

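Other classes were also counted, against 30.4% of genes higher and 31.1% lower. Of 33 tested cytosolic heat shock proteins and cochaperones, 16 fell and 8 rose. FKBP4, a cochaperone of HSP90, fell from 295 and 294 CPM to 211 and 218 CPM, a log2 fold change of -0.46. Of 84 tested genes of intraflagellar transport and the cilium, 38 fell and 13 rose. Potassium channels had 24 of 60 lower and 10 higher. Of 16 tested genes of catecholamine synthesis, transport and breakdown, 10 fell and 4 rose, and GCH1, which makes the cofactor of tyrosine hydroxylase, fell from 80 and 81.4 CPM to 44.5 and 46.3 CPM (-0.83). Circadian clock genes had 12 of 24 higher and 4 lower, and NFIL3, a repressor among them, rose from 4.16 and 4.71 CPM to 9.28 and 8.65 CPM (1.01).

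Proteasome subunits had 9 of 36 higher and 12 lower, mitochondrial ribosomal proteins 13 of 77 higher and 27 lower, and complex I subunits 13 of 37 higher and 9 lower. Neurotransmitter receptors had 18 of 57 higher and 17 lower, with CHRM2, a muscarinic receptor, going from 26.6 and 27.6 CPM to 51.3 and 50.4 CPM (0.91).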
